A study of Mus musculus with 7 samples.

Results

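H3K27ac was measured at the loci of 10 transcription factors of the pluripotency network (Pou5f1, Nanog, Sox2, Esrrb, Zfp42, Tfcp2l1, Nr5a2, Prdm14, Sall4 and Tbx3) while NeuroD1 was switched on in mouse embryonic stem (ES) cells. A locus was the gene body with 20 kb on each side in GENCODE M21 (mm10, GRCm38), and every merged H3K27ac peak that overlapped it was taken. This gave 99 of the 66841 merged peaks, and 10 of the 17254 protein-coding gene loci with a peak. Peaks within 2 kb of a transcription start site (TSS) were taken as promoter peaks, and 12 of the 99 peaks were promoter peaks of the gene itself, 8 were promoter peaks of a neighbouring gene (3 at Pou5f1 and 5 at Sall4), and 79 were neither. The cells were A2Lox ES cells of a single engineered line, A2lox-NeuroD1, in which a doxycycline-inducible promoter drives HA-tagged murine NeuroD1. Their culture medium held serum and LIF, and feeder cells were removed before the experiments. Whether LIF was kept during the induction is not stated. The 0 h libraries came from cells without doxycycline, and the 12 h and 48 h libraries from cells given 500 ng/ml of it, so that all groups carried the transgene. Every group consisted of 2 libraries (R1 and R2). No source used here says whether these were separate cultures, so the p-values measure the spread between these libraries, which may be technical.

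Active promoters and enhancers carry histone H3 acetylated at a lysine of its tail (H3K27ac). In ES cells, Pou5f1 (Oct4) and Sox2 bind side by side on a composite DNA element, and with Nanog they sustain each other's genes and those of the wider network. Esrrb, Tfcp2l1, Nr5a2, Tbx3, Prdm14 and Zfp42 (Rex1) belong to the naive state, which cells leave before they enter a lineage, whereas Sox2 and Sall4 are also used in early neural and other progenitors. NeuroD1 is a basic helix-loop-helix factor of neuronal differentiation that binds E-boxes.

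Reads in merged peaks ranged from 6283103 to 8112895 per library. Scaled counts are reads per peak after each library was brought to the mean total. The test was edgeR's quasi-likelihood fit, adjusted over all features of a kind (Benjamini-Hochberg), and a peak or locus is called gained or lost where the adjusted p was under 0.05. Sizes of rises and falls are log2 fold changes throughout. Both comparisons with 0 h use the same 2 control libraries. Of the 10 members, 9 had an own promoter peak, with a summed scaled count of 17464 and 17929.8 (0 h), 18620.1 and 18563 (12 h) and 12796 and 14785 (48 h). Of 10 neuron markers, 9 had a promoter peak, and their summed scaled count was 769.7 and 708 (0 h), 746 and 733 (12 h) and 1548 and 1071 (48 h). Of these 9 peaks, 5 were gained at 48 h vs 0 h, against 4.87% of all promoter peaks, and those of Stmn2, Elavl3, Map2 and Elavl4 were not called. Promoter peaks were found for 3 of 10 fibroblast markers (sums of 18.2 to 66.6) and 2 of 7 primitive endoderm markers (58.9 to 109), and the rest of both lists had none. Among the fibroblast markers, Pdgfrb was gained at 48 h vs 0 h, by 2.20 (SE 0.54, edgeR adjusted p = 0.00742). The 48 h R1 library thus had the lowest sum over the members and the highest over the neuron markers, and the part of cell mixture in the values below was not tested. In bulk samples, fewer cells with acetylation and less acetylation per cell cannot be told apart.

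H3K27ac summed over a locus was lower at 48 h than at 0 h for Nr5a2, Tfcp2l1, Esrrb, Nanog and Sox2, and lower at 48 h than at 12 h for all members except Nanog, Prdm14 and Sall4. The largest loss was at Nr5a2, with a level at 48 h of 0.405 times that at 0 h. At 12 h, in contrast, both libraries exceeded both 0 h libraries at 6 of the 10 loci, against 18.1% of all loci. This rise depended in part on the scaling. With an offset for GC content, the log2 fold change of Zfp42, 1 of the 6, turned from 0.26 to -0.068, while the rest of the 6 kept their sign. The median over the member peaks went from 0.028 to -0.039. By 48 h both libraries lay below both 0 h libraries at 8 loci, an order that 24.7% of all loci showed, and below both 12 h libraries at 8 loci, against 19.3% of all loci.

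From 0 h to 12 h the test called 1 member locus gained (Pou5f1) and 1 lost (Nr5a2), where 8.06% of all loci were gained and 30.8% were lost. It called 5 lost and 0 gained at 48 h vs 0 h, against backgrounds of 5.92% and 6.58%, and 7 lost and 0 gained at 48 h vs 12 h, against 8.42% and 37.4%. At an unadjusted p under 0.05, 0 loci were gained in either comparison, and DESeq2 also called 0. The median log2 fold change over the members was 0.19, -0.33 and -0.60 for 12 h vs 0 h, 48 h vs 0 h and 48 h vs 12 h, and over all loci it was -0.27, 0.02 and 0.28. At 12 h the count of 2 came to 0 without any 1 of the 0 h or 12 h libraries and to 9 without either 48 h library, which are otherwise pooled into the estimate of spread. At 48 h vs 0 h the count of 5 came to 1 without either 0 h library and to 2 without either 12 h library. At 48 h vs 12 h the count of 7 came to 0 without either 12 h library. With DESeq2's size factors the median of all loci shifted by 0.26 at 12 h vs 0 h and by -0.28 at 48 h vs 12 h, the differences of Nanog and Sall4 at 12 h changed sign (0.08 and 0.11), and the calls tipped: at 12 h DESeq2 called 2103 of all loci gained and 427 lost, where the main fit called 1391 and 5321, and 5 members gained and 0 lost. At 48 h vs 12 h it called 1232 of all loci gained and 2526 lost, where the main fit called 6458 and 1452, and all 10 members lost.

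**Figure D1:**
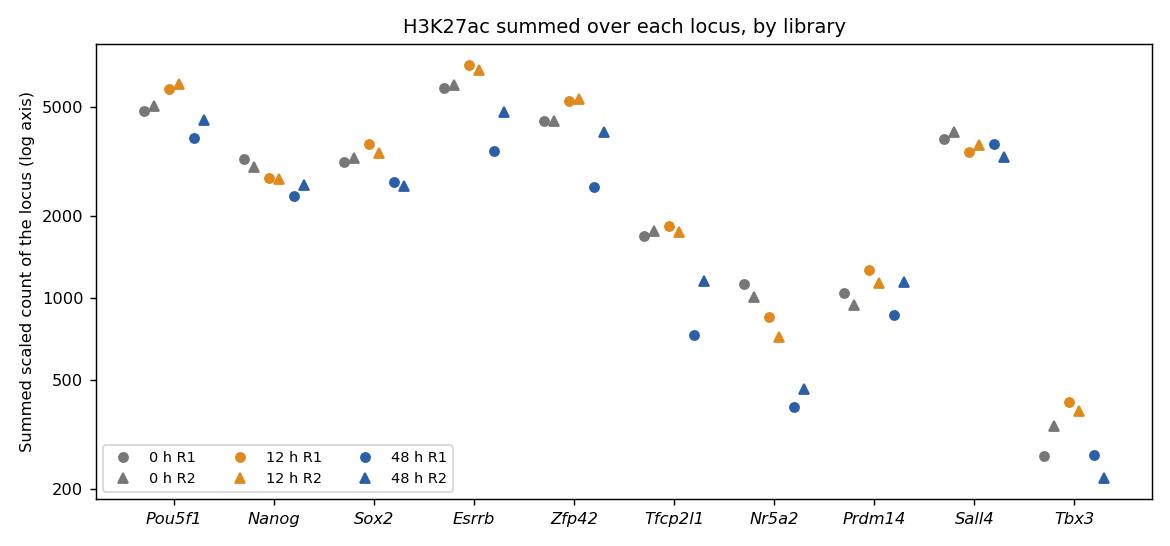
Summed scaled H3K27ac count of each member locus (log axis) in the 6 libraries, with circles for R1 and triangles for R2. The 48 h libraries lie below both 0 h and both 12 h libraries at Pou5f1, Nanog, Sox2, Esrrb, Zfp42, Tfcp2l1 and Nr5a2, while at Prdm14, Sall4 and Tbx3 they overlap with those of at least 1 earlier time point.

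Pou5f1, Sox2 and Nanog, the core of the network, each had a broad promoter peak. These peaks hold the letters TTGTNATGC, a short form of the element on which Sox2 and Oct4 pair, and 1 copy from each is shown, since these stretches lie inside the regions whose H3K27ac is described. Capitals mark the match, and the strand shown is plus for Sox2, minus for Nanog and minus for Pou5f1 (GRCm38).
Sox2, chr3:34654021-34654089: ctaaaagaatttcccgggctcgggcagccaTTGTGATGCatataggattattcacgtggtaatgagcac
Nanog, chr6:122707387-122707455: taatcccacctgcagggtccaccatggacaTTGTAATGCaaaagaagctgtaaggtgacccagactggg
Pou5f1, chr17:35504023-35504091: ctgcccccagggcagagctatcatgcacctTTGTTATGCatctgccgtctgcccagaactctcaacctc
The copy at Nanog lies just upstream of its TSS, that at Pou5f1 upstream of the gene, and that at Sox2 downstream of the gene. Searched on both strands over the whole peak, the letters were found in 7 of the 99 peaks (7.07%) and in 2.87% of all peaks. The share was higher in wide peaks, with 4 of 9 member peaks and 29.5% of all peaks of at least 9 kb.

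The Pou5f1 locus (chr17:35506018-35510772) had a summed scaled count of 4849.9 and 5048 (0 h), 5821 and 6073 (12 h) and 3846 and 4486 (48 h). All 3 groups were separate, with 12 h highest. The locus rose by 0.27 (SE 0.09, edgeR adjusted p = 0.0415) at 12 h and fell by 0.51 (SE 0.09, edgeR adjusted p = 0.00535) from 12 h to 48 h, while 48 h vs 0 h gave -0.25 (SE 0.09, edgeR adjusted p = 0.11). The call at 12 h was lost without any 1 of the 0 h or 12 h libraries (adjusted p from 0.156 to 0.252), and the call at 48 h vs 12 h without either 12 h library (0.0665 and 0.0813). Its promoter peak (chr17:35494081-35512035, 17955 bp) also overlaps the gene Gm19553 and reaches far upstream of the TSS, and carried 67.6% of the counts of the locus. That peak had 3204 and 3295 (0 h), 4019 and 4290.4 (12 h) and 2541 and 3006 (48 h), with a difference of 0.35 (SE 0.13, edgeR adjusted p = 0.0584) at 12 h vs 0 h and -0.58 (SE 0.13, edgeR adjusted p = 0.00333) at 48 h vs 12 h. The strongest other peak, centred 17.5 kb upstream (chr17:35484407-35492689), had 986 and 1069 (0 h), 1239 and 1204 (12 h) and 673 and 870.2 (48 h) and fell by 0.66 (SE 0.15, edgeR adjusted p = 0.00518) from 12 h to 48 h. A promoter peak of a neighbouring gene (chr17:35530099-35532604), chosen after its values were seen, was the only peak of the locus called at 48 h vs 0 h, with -0.89 (SE 0.22, edgeR adjusted p = 0.00822).

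Sox2 (chr3:34650405-34652461) had a promoter peak that passed no test and flanking peaks that rose and fell. Its promoter peak (chr3:34647874-34657864, 9991 bp), which covers the gene and part of the long non-coding Sox2ot, had 2356 and 2506 (0 h), 2602 and 2398 (12 h) and 2131 and 1991 (48 h). The 0 h and 12 h libraries overlapped, and 48 h vs 0 h gave -0.24 (SE 0.13, edgeR adjusted p = 0.248), with a 95% interval of -0.51 to 0.03. A peak in the Sox2ot gene, centred 4.07 kb upstream (chr3:34644893-34647776), ends just short of the start of the promoter peak. By contrast with the promoter peak, it had 120.1 and 93.4 (0 h), 219.8 and 219 (12 h) and 56.6 and 82.5 (48 h). Its 12 h libraries were the highest and its 48 h libraries the lowest, without overlap. It rose by 1.04 (SE 0.23, edgeR adjusted p = 0.00332) at 12 h and then fell by 1.64 (SE 0.24, edgeR adjusted p = 9.6e-05) to 48 h.

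The central 300 bases of that upstream peak (chr3:34646185-34646484, plus strand, GRCm38) are shown because it gained and then lost acetylation within 48 h. Capitals mark its E-box CAGATG, a form that NeuroD1 dimers can bind. In the 500 bp at the centre, CAGATG was in 38.0% of the 79 member peaks outside promoters and 31.7% of all such peaks.
Sox2 upstream peak: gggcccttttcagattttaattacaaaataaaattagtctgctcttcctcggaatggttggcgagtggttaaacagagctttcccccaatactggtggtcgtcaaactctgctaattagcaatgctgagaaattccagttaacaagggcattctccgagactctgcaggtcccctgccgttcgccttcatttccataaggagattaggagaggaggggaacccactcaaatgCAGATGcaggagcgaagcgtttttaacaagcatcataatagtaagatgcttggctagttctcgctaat
The same order was seen downstream of Sox2 at a peak centred 17.2 kb from the TSS (chr3:34666618-34668633), with 119 and 115 (0 h), 198 and 181 (12 h) and 104 and 97.2 (48 h). It rose by 0.70 (SE 0.21, edgeR adjusted p = 0.0276) and then fell by 0.91 (SE 0.21, edgeR adjusted p = 0.00546) to 48 h. The strongest non-promoter peak, 14 kb downstream (chr3:34662863-34665994), had 269.9 and 282 (0 h), 286 and 276 (12 h) and 203 and 179 (48 h), with overlapping 0 h and 12 h libraries before a difference of -0.56 (SE 0.19, edgeR adjusted p = 0.0378). In all, 2 of the 10 Sox2 peaks were gained at 12 h, 1 was lost at 48 h vs 0 h and 6 were lost at 48 h vs 12 h. Summed over the locus, counts were 3141 and 3240.4 (0 h), 3663 and 3399 (12 h) and 2665 and 2565 (48 h), and they fell by 0.29 (SE 0.08, edgeR adjusted p = 0.0455) from 0 h and by 0.43 (SE 0.08, edgeR adjusted p = 0.00591) from 12 h.

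Nanog (chr6:122707489-122714633) had no peak gained at any time. Its locus sum was lower at 12 h than at 0 h without overlap, an order that 63.6% of all loci showed. The median of all loci was -0.27 in that comparison. The sign of this Nanog step turned under DESeq2's scaling (0.08), and TMM factors gave no call (-0.12, edgeR adjusted p = 0.335). It was called with the GC offset (-0.40, edgeR adjusted p = 0.000246) and with only the 4 libraries compared (-0.18, edgeR adjusted p = 0.00378). The locus had 3227 and 3009 (0 h), 2759 and 2730.2 (12 h) and 2363 and 2581 (48 h), 3 groups without overlap. In the main fit it fell by 0.33 (SE 0.09, edgeR adjusted p = 0.0288) from 0 h to 48 h, and the steps of -0.18 (SE 0.08, edgeR adjusted p = 0.104) to 12 h and -0.15 (SE 0.09, edgeR adjusted p = 0.163) from 12 h to 48 h missed the threshold. The promoter peak (chr6:122700804-122713635, 12832 bp) had 1991 and 1867 (0 h), 1577 and 1598 (12 h) and 1236 and 1461 (48 h) and fell by 0.52 (SE 0.14, edgeR adjusted p = 0.0142) at 48 h vs 0 h. Peaks centred 12.7 kb and 8.22 kb upstream were lost too, with -1.09 (SE 0.27, edgeR adjusted p = 0.00816) and -0.83 (SE 0.21, edgeR adjusted p = 0.00866). The strongest non-promoter peak (chr6:122713842-122718353), at the 3′ end of the gene, pointed the other way, with 584 and 468 (0 h), 619 and 611 (12 h) and 706 and 678 (48 h). Both 48 h libraries were its highest, but the difference of 0.40 (SE 0.16, edgeR adjusted p = 0.109) did not pass, with a 95% interval of 0.06 to 0.73.

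Esrrb, an orphan nuclear receptor, carried the broadest H3K27ac peak of the whole set. The gene spans chr12:86361117-86521628, and this peak (chr12:86463322-86499711) covered 36390 bp around an internal TSS, the widest of the 66841 merged peaks. Its scaled counts were 3852 and 3937 (0 h), 4645 and 4423 (12 h) and 2357 and 3305 (48 h). The 48 h libraries were the lowest and lay far apart, and the peak fell by 0.46 (SE 0.14, edgeR adjusted p = 0.0282) relative to 0 h. A further broad peak in the gene, centred 35.2 kb downstream of that TSS (chr12:86500120-86510577, 10458 bp), had 1690.2 and 1783 (0 h), 2095 and 2077 (12 h) and 825 and 1204 (48 h). It fell by 0.77 (SE 0.16, edgeR adjusted p = 0.0014) relative to 0 h and by 1.04 (SE 0.16, edgeR adjusted p = 0.00014) relative to 12 h. Summed over the locus, the counts were 5853 and 6025 (0 h), 7139.9 and 6838 (12 h) and 3441 and 4793 (48 h), and they fell by 0.53 (SE 0.13, edgeR adjusted p = 0.025) from 0 h and by 0.76 (SE 0.13, edgeR adjusted p = 0.0051) from 12 h.

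This second Esrrb peak holds 4 matches to TCAAGGTCA, the extended single site that Esrrb and Nr5a2 proteins recognise, and they are shown because the peak lies in the gene of such a receptor and fell most among the strong peaks of that locus. Capitals mark the match, and the strands are plus for the first 3 and minus for the last (GRCm38).
Esrrb intron, chr12:86502029-86502097: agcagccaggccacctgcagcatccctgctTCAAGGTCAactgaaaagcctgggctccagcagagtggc
Esrrb intron, chr12:86503521-86503589: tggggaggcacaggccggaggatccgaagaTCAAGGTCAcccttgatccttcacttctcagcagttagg
Esrrb intron, chr12:86504489-86504557: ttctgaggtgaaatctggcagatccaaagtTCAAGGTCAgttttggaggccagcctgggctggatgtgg
Esrrb intron, chr12:86501687-86501755: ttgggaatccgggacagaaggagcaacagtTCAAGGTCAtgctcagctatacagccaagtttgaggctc
None of the 4 was within the 500 bp at the centre of the peak, where 2.53% of the 79 member peaks outside promoters and 1.84% of all such peaks had a match. Over whole peaks, the letters were also in the promoter peaks of Esrrb, Sox2 and Sall4 and in further peaks at Pou5f1 and Zfp42. Their share over all whole peaks was not computed, and a wide peak has more room for a match. Upstream of the internal TSS by 7.21 kb, a narrow intronic peak (chr12:86462646-86463160) had few reads, with scaled counts of 15.4 and 12.7 (0 h), 37.5 and 27.6 (12 h) and 15.5 and 17.2 (48 h). It was highest in both 12 h libraries and rose by 1.19 (SE 0.38, edgeR adjusted p = 0.0334), the largest called gain of the 99 peaks at 12 h, whereas 48 h vs 0 h gave 0.22 (SE 0.42, edgeR adjusted p = 0.785). Its central 300 bases (chr12:86462754-86463053, plus strand, GRCm38) hold an E-box CAGATG, in capitals, and are shown as the stretch of the largest gain. CAGATG was in the central 500 bp of 31.7% of all peaks outside promoters. The Tbx3 intron peak gained at 12 h, described below, held neither CAGATG nor CAGCTG in its central 300 bases.
Esrrb intronic peak: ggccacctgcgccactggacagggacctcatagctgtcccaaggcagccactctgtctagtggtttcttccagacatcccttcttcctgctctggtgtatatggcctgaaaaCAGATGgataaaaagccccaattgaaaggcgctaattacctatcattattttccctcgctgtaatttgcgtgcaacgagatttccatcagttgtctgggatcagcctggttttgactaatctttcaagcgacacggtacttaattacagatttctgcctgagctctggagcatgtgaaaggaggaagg

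Nr5a2 (LRH-1), a nuclear receptor that can replace Oct4 in reprogramming, had the largest fall of the 10 loci. The gene is at chr1:136842571-136960448 on the minus strand, and 3 promoter peaks at its starts held 98.2% of the counts of the locus. The locus had 1126 and 1008 (0 h), 852 and 718 (12 h) and 399.7 and 463 (48 h), 3 groups that stepped down without overlap. It fell by 0.44 (SE 0.13, edgeR adjusted p = 0.0221) at 12 h, by 1.30 (SE 0.13, edgeR adjusted p = 0.000288) at 48 h vs 0 h and by 0.86 (SE 0.13, edgeR adjusted p = 0.0038) from 12 h to 48 h. The strongest promoter peak (chr1:136950979-136955803) had 659.9 and 624 (0 h), 575 and 489 (12 h) and 268 and 298 (48 h), and fell by 1.18 (SE 0.17, edgeR adjusted p = 3.0e-05) at 48 h vs 0 h. The peak beside it (chr1:136956823-136959247), which had 331 and 249 (0 h), 187 and 147 (12 h) and 85.5 and 101 (48 h), fell already at 12 h, by 0.80 (SE 0.21, edgeR adjusted p = 0.0123), and by 1.63 (SE 0.22, edgeR adjusted p = 1.5e-05) at 48 h vs 0 h. The third (chr1:136948626-136950255) fell by 1.30 (SE 0.26, edgeR adjusted p = 0.00121) at 48 h vs 0 h. The call of the locus at 12 h was lost with TMM factors (adjusted p = 0.0593), with DESeq2 (adjusted p = 0.519), within 120 kb (adjusted p = 0.0773) and without any 1 of the 0 h or 12 h libraries (adjusted p from 0.0897 to 0.222), and its call at 48 h vs 0 h was kept in each alternative run.

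Tfcp2l1, a CP2-family factor downstream of LIF, lost acetylation at its promoter by 12 h and at a broad peak inside the gene by 48 h. The gene spans chr1:118627945-118685168, and only 4.81% of the counts of the locus were in its 2 promoter peaks. The main promoter peak (chr1:118627776-118628816) had 85.2 and 83.8 (0 h), 51.5 and 43.2 (12 h) and 27.8 and 53.3 (48 h), so that the 12 h libraries already lay below both 0 h libraries. It fell by 0.84 (SE 0.29, edgeR adjusted p = 0.049) at 12 h, a call lost with DESeq2, TMM factors, the GC offset, the count filter and without any 1 of the 0 h or 12 h libraries (-0.97 to -0.49), and by 1.03 (SE 0.29, edgeR adjusted p = 0.0192) at 48 h vs 0 h. The broad peak centred 18.8 kb into the gene (chr1:118640405-118653072, 12668 bp) had 1547 and 1588 (0 h), 1719 and 1651 (12 h) and 676 and 1047 (48 h). Its 12 h libraries lay slightly above those of 0 h and its 48 h libraries far below, and it fell by 0.86 (SE 0.17, edgeR adjusted p = 0.00085) relative to 0 h. The whole locus fell by 0.86 (SE 0.17, edgeR adjusted p = 0.00858) relative to 0 h and by 0.92 (SE 0.17, edgeR adjusted p = 0.00548) relative to 12 h, and its 48 h R2 sum was 57.4% above that of R1.

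**Figure D2:**
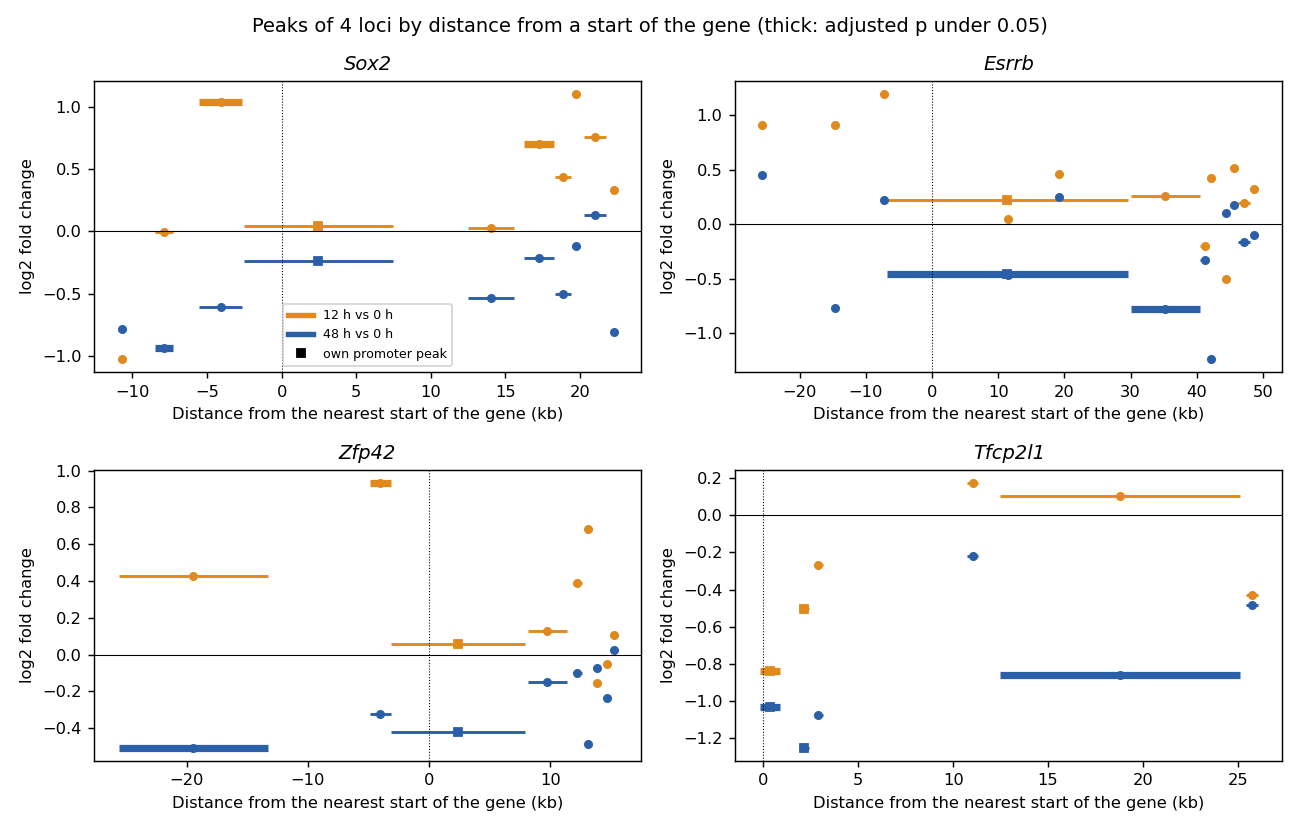
Log2 fold change of each H3K27ac peak at the Sox2, Esrrb, Zfp42 and Tfcp2l1 loci against its distance from the nearest TSS of the gene in kb, positive in the direction of transcription. Bars span the peak, thick bars have an adjusted p under 0.05, and squares mark the own promoter peaks, with orange for 12 h vs 0 h and blue for 48 h vs 0 h. The flanking peaks of Sox2 and Zfp42 that rose at 12 h lie outside the promoter peak, and at Tfcp2l1 the promoter peak fell at both times while the broad internal peak fell at 48 h.

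Zfp42 (Rex1), a zinc finger protein whose loss marks exit from the naive state, lies at chr8:43295063-43306980 on the minus strand. Its promoter peak (chr8:43299031-43310094, 11064 bp) had 2478 and 2514 (0 h), 2596 and 2594 (12 h) and 1471 and 2257 (48 h). The 48 h libraries were lower and far apart, and 48 h vs 12 h gave -0.48 (SE 0.16, edgeR adjusted p = 0.0339). Upstream, a peak just beyond it (chr8:43310153-43311895) had 292 and 323 (0 h), 554 and 620.0 (12 h) and 152 and 335 (48 h), with the 12 h libraries far above the rest. It rose by 0.93 (SE 0.23, edgeR adjusted p = 0.00772) and then fell by 1.26 (SE 0.23, edgeR adjusted p = 0.000898) to 48 h. A broad peak centred 19.5 kb upstream (chr8:43320284-43332591, 12308 bp) had 1321 and 1309 (0 h), 1764 and 1769 (12 h) and 749 and 1099 (48 h). It gave 0.43 (SE 0.16, edgeR adjusted p = 0.0666) at 12 h and fell by 0.51 (SE 0.16, edgeR adjusted p = 0.0342) at 48 h vs 0 h. Summed over the locus, 48 h vs 0 h gave -0.42 (SE 0.17, edgeR adjusted p = 0.135), which did not pass, with 2556 in R1 and 4066 in R2 at 48 h, a gap of 59.1%.

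Tbx3 (chr5:119670669-119684724), a T-box factor that acts below LIF signalling, had the weakest locus, ranked 9800 of 17254 by mean count. The locus had 265 and 342 (0 h), 416 and 385 (12 h) and 268 and 219 (48 h). Its 48 h and 0 h libraries overlapped, and both 12 h libraries were above the rest. It fell by 0.72 (SE 0.17, edgeR adjusted p = 0.00968) from 12 h to 48 h, and the difference of 0.40 (SE 0.17, edgeR adjusted p = 0.0781) at 12 h did not pass. The promoter peak (chr5:119669795-119672167) had 109.8 and 157 (0 h), 140.5 and 141 (12 h) and 139 and 101 (48 h). The 0 h libraries overlapped those of both later times, and both 12 h libraries were above both 48 h libraries. Its 48 h vs 12 h difference of -0.24 (SE 0.24, edgeR adjusted p = 0.503) did not pass. The 4 peaks downstream of it all had a positive log2 fold change at 12 h (0.40 to 1.14) and a negative one from 12 h to 48 h (-1.51 to -0.95). At 12 h the peak in an intron 8.45 kb into the gene (chr5:119679123-119679806) rose, by 1.14 (SE 0.37, edgeR adjusted p = 0.0368), from scaled counts of 13.3 and 26.5 to 55.8 and 33.1. The strongest of the 4 (chr5:119680149-119681264) fell by 0.999 (SE 0.24, edgeR adjusted p = 0.00551) from 12 h to 48 h, and the next (chr5:119682396-119682952), with 22.6 and 23.4 (0 h), 36.5 and 35 (12 h) and 8.88 and 15.5 (48 h), fell by 1.51 (SE 0.37, edgeR adjusted p = 0.00777).

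Sall4 and Prdm14 passed no locus test in the main edgeR fit at any time, although DESeq2, whose scaling shifted all loci, called both lost from 12 h to 48 h. With only the 4 libraries compared, edgeR called Sall4 lost at 12 h vs 0 h, with -0.16 (SE 0.05, edgeR adjusted p = 0.0104). Sall4, a zinc finger factor that partners Oct4, lies at chr2:168748332-168767943 on the minus strand and had the most peaks, 22. The locus had 3832 and 4033 (0 h), 3423 and 3637 (12 h) and 3654 and 3285 (48 h). The 48 h libraries were below both 0 h libraries but overlapped the 12 h libraries, and 48 h vs 0 h gave -0.18 (SE 0.09, edgeR adjusted p = 0.218), with a 95% interval of -0.37 to 0.01. Its promoter peak (chr2:168759287-168770681, 11395 bp) had 2728 and 2946 (0 h), 2415 and 2587 (12 h) and 2626 and 2313 (48 h), and 48 h vs 0 h gave -0.20 (SE 0.13, edgeR adjusted p = 0.345). The strongest other peak (chr2:168775836-168778473) had 299.7 and 277 (0 h), 284 and 304 (12 h) and 315 and 284 (48 h), with a 95% interval of -0.32 to 0.42 for 48 h vs 0 h. The only call among the 22 was a narrow peak 18.8 kb upstream (chr2:168785804-168786287), which had 28.7 and 23.4 (0 h), 37.5 and 23 (12 h) and 12.2 and 12 (48 h) and fell by 1.30 (SE 0.39, edgeR adjusted p = 0.0242) from 12 h to 48 h.

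Prdm14, a PR-domain protein that holds back Fgf signalling and DNA methylation in the naive state, lies at chr1:13113457-13127163 on the minus strand. No merged peak overlapped the 2 kb around its TSS, although its flanks carried H3K27ac. The locus had 1046 and 945 (0 h), 1264 and 1138 (12 h) and 866 and 1149 (48 h). The 0 h and 48 h libraries overlapped, and 48 h vs 0 h gave 0.02 (SE 0.13, edgeR adjusted p = 0.945), with a 95% interval of -0.28 to 0.32. Most of this was in a peak centred 31.9 kb downstream of the TSS (chr1:13093013-13097433), beyond the end of the gene, which had 708 and 675 (0 h), 861 and 797 (12 h) and 599.6 and 824 (48 h). None of the 6 peaks was called in any comparison, and at an unadjusted p under 0.05 only 1 was higher, at 12 h, with 0 calls by DESeq2.

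Over all 99 peaks, 5 were gained and 2 lost at 12 h vs 0 h, where 9.93% of all merged peaks were gained and 6.03% lost. From 0 h to 48 h, 14 were lost and 0 gained, against backgrounds of 5.45% and 8.56%. From 12 h to 48 h, 23 were lost and 0 gained, against 8.43% and 10.7%. Beside the 0 gained, 1 peak was higher at an unadjusted p under 0.05 in each of these comparisons, and DESeq2 called 0. The median log2 fold change of the 99 was 0.03, -0.39 and -0.35 in the 3 comparisons, and that of all merged peaks -0.08, -0.04 and -0.03. Of the 99 peaks, 63 had a mean of at least 20 reads.

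The gains at 12 h were all in peaks outside promoters, at Sox2, Esrrb, Tbx3 and Zfp42, and both losses at 12 h were in promoter peaks, of Tfcp2l1 and Nr5a2. Over the whole set at 12 h, 94.1% of all gained peaks lay outside promoters and 69.3% of all lost peaks were promoter peaks. In that comparison 2.4% of all promoter peaks were gained and 17.0% lost, and 12.4% and 2.45% of all peaks outside promoters. Of the 12 promoter peaks, 6 were lost by 48 h relative to 0 h and 5 relative to 12 h, against 2.88% and 2.61% of all promoter peaks, and all 12 had a negative log2 fold change in both comparisons. None of the 12 was gained in either, where 4.87% and 27.4% of all promoter peaks were. The 12 were wider than all promoter peaks, with a median of 7408 bp against 1306 bp. They also held more reads, with a median of 1050.5 against 107. Among the 356 merged peaks of at least 9 kb, 76 fell and 36 rose by the same test between 0 h and 48 h. Between 12 h and 48 h, 171 fell and 12 rose. Whether the 12 promoter peaks were lost more often than promoter peaks of like width and reads was not tested. Of the 79 other peaks, 7 and 18 were lost, against 6.29% and 10.3% of all peaks outside promoters, and 0 were gained, against 9.76% and 5.3%. The 7 losses are a share near that of all such peaks. Among all 16416 promoter peaks, the median log2 fold change was -0.38, 0.06 and 0.44 in the 3 comparisons, whereas over the 12 it was -0.23, -0.49 and -0.53. Among all peaks outside promoters the medians were 0.08, -0.11 and -0.20, and over the 79 they were 0.09, -0.38 and -0.37.

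These counts moved with single libraries. The 5 gains at 12 h came to 1 without 0 h R1 or 12 h R1, to 0 without 0 h R2 or 12 h R2, and to 16 without either 48 h library, and the 2 losses came to 0 without any 1 of the 0 h or 12 h libraries and to 9 without either 48 h library. With TMM factors, 10 were gained and 1 lost at 12 h. The 14 losses at 48 h vs 0 h came to 7 without 0 h R1, 3 without 0 h R2, 9 without either 12 h library and 23 without 48 h R2. The 23 losses at 48 h vs 12 h came to 5 without 12 h R1, 6 without 12 h R2 and 15 without either 0 h library.

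**Figure D3:**
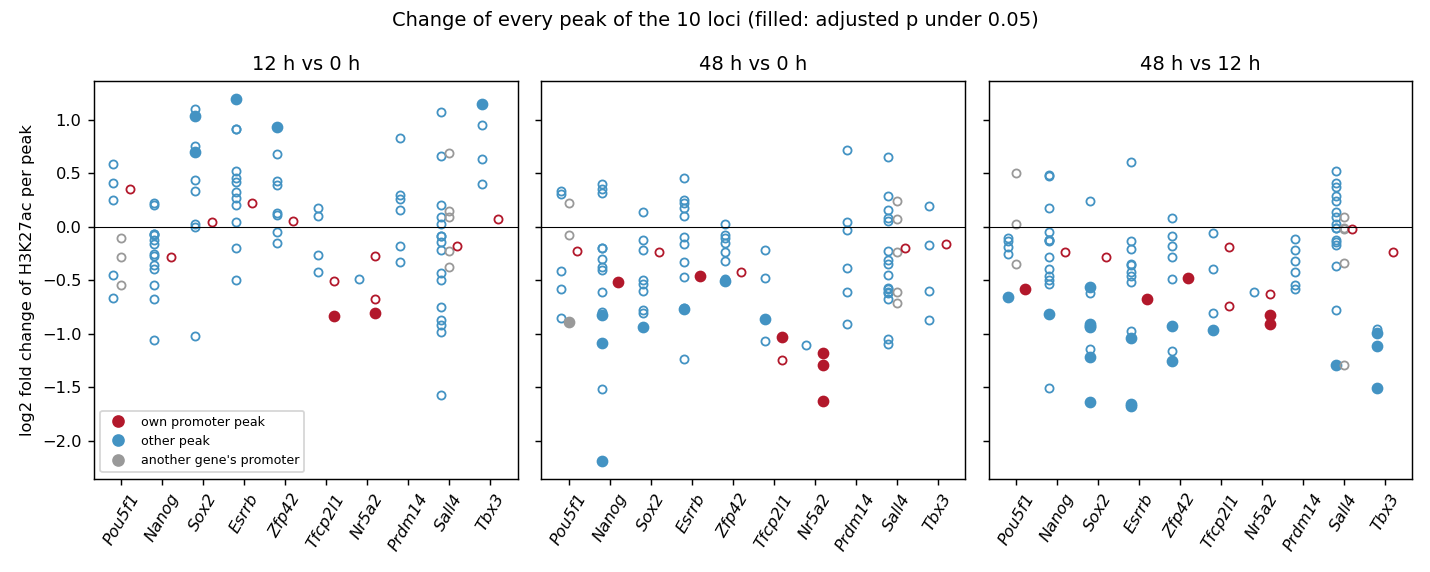
Log2 fold change of every peak of the 10 loci in the 3 comparisons, with filled points for an adjusted p under 0.05. At 12 h vs 0 h the filled points above 0 are peaks outside promoters (blue, 5) and those below 0 are promoter peaks (red, 2), and in both comparisons of 48 h all filled points lie below 0 (14 and 23).

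The change of the other peaks was then compared with that of the promoter peaks within each locus, as an interaction in which each library serves as its own reference, for the 9 members with both kinds. At 12 h vs 0 h the other peaks gained on the promoter at 1 member and lost on it at 0, against 12.2% and 0.716% of 9917 genes. From 0 h to 48 h no member was called, against 2.65% and 1.68% of genes, and 1 of 9 passed an unadjusted p under 0.05 (Nanog, other peaks higher). From 12 h to 48 h the other peaks gained on the promoter at 0 members and lost on it at 2, against 1.31% and 20.9%. Beside both counts of 0, an unadjusted p under 0.05 was reached by 0 members as well, and DESeq2 was not run for this test. The members' medians of other minus promoter were 0.24, -0.01 and -0.25 on the log2 scale, and those of all genes 0.35, -0.14 and -0.48. The 1 call at 12 h vs 0 h and the 2 calls at 48 h vs 12 h are shares of the 9 members near those of all genes.

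The member called at 12 h was Tfcp2l1, with 0.87 (SE 0.23, edgeR adjusted p = 0.0255). The log2 ratio of its other peaks to its promoter peaks was 3.89 and 4.02 (0 h), 4.71 and 4.94 (12 h) and 4.25 and 4.16 (48 h), highest in both 12 h libraries. This call was lost with an offset for GC content (0.54, adjusted p = 0.0912) and without any 1 of the 0 h or 12 h libraries (adjusted p from 0.151 to 0.284). Those called at 48 h vs 12 h were Sox2, with -0.62 (SE 0.17, edgeR adjusted p = 0.0229), and Zfp42, with -0.44 (SE 0.15, edgeR adjusted p = 0.0499). At Sox2 the log2 ratio was -1.59 and -1.77 (0 h), -1.30 and -1.26 (12 h) and -2.00 and -1.79 (48 h), and at Zfp42 it was -0.35 and -0.38 (0 h), 0.03 and 0.09 (12 h) and -0.44 and -0.32 (48 h). At both loci the 12 h libraries stood above all others, and their differences at 12 h vs 0 h were 0.40 (SE 0.17, edgeR adjusted p = 0.125) and 0.43 (SE 0.15, edgeR adjusted p = 0.0737). The Zfp42 call was lost with promoters taken as 1 kb (adjusted p = 0.0514) or loci as 10 kb (adjusted p = 0.128), and both calls were lost without any 1 of the 0 h or 12 h libraries (adjusted p from 0.0595 to 0.192 for Sox2 and from 0.117 to 0.293 for Zfp42).

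At Tbx3 the order was the same, with a log2 ratio of 0.50 and 0.23 (0 h), 0.97 and 0.80 (12 h) and -0.11 and 0.24 (48 h), but neither the difference at 12 h vs 0 h, 0.52 (SE 0.29, edgeR adjusted p = 0.238), nor that at 48 h vs 12 h, -0.82 (SE 0.29, edgeR adjusted p = 0.0551), passed. At Nanog the ratio was higher at each later time, with -0.69 and -0.71 (0 h), -0.42 and -0.50 (12 h) and -0.13 and -0.38 (48 h), and 48 h vs 0 h gave 0.44 (SE 0.17, edgeR adjusted p = 0.164). Pou5f1, Esrrb, Sall4 and Nr5a2 had differences between -0.25 and 0.23, none of which passed, with 95% intervals that reached from -0.78 to 1.21 at Nr5a2, whose 1 other peak had few reads. Prdm14 had no promoter peak. The promoter peaks of Pou5f1, Esrrb, Zfp42, Nanog, Sall4 and Sox2 are broad enough to hold nearby enhancers, which limits this split.

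**Figure D4:**
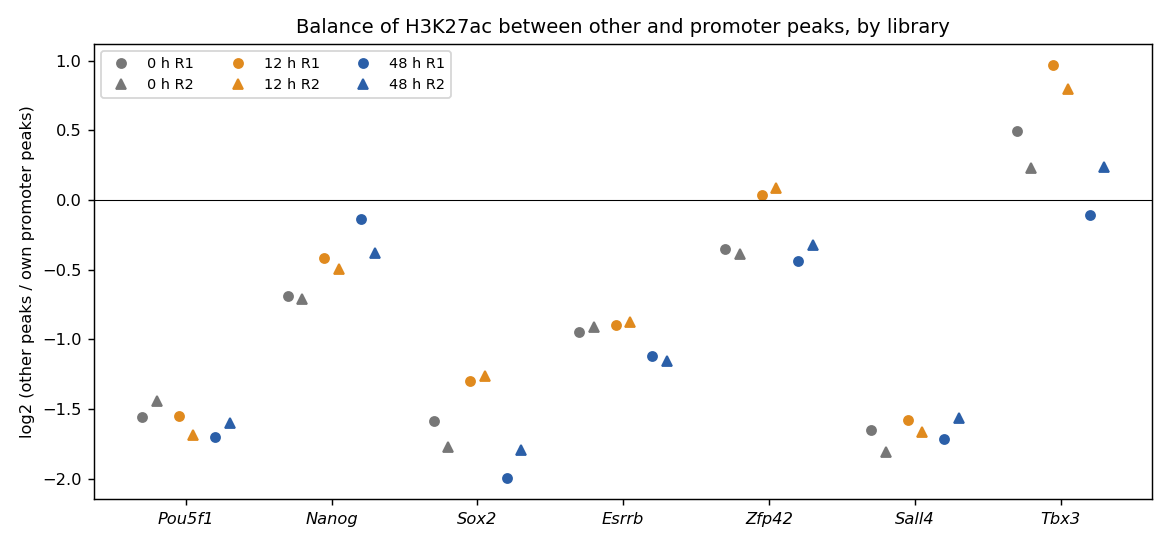
Log2 ratio of the summed scaled counts of other peaks to own promoter peaks in the 6 libraries, for 7 loci (Tfcp2l1, with ratios of 3.89 to 4.94, and Nr5a2, with ratios of -6.16 to -5.46, lie outside the range drawn). The 12 h libraries are the highest at Sox2, Zfp42 and Tbx3, and the 48 h libraries are the highest at Nanog.

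Several member peaks were very broad. Peaks of at least 9 kb, a width chosen after the values were seen, made up 9 of the 99 peaks (9.09%) and 356 of all peaks (0.533%). Besides that of Esrrb, they were the promoter peaks of Pou5f1 (17955 bp, rank 37 by width), Nanog, Sall4, Zfp42 and Sox2, and the other broad peaks of Esrrb, Zfp42 and Tfcp2l1. Of the 9, 0 were lost by 12 h, 5 by 48 h relative to 0 h and 6 relative to 12 h, and 0 were gained in each comparison. Of the 356, 13, 76 and 171 were lost in the same comparisons and 118, 36 and 12 gained. At an unadjusted p under 0.05, 0 of the 9 were lower and 2 higher at 12 h, and DESeq2 called 0. In both comparisons of 48 h, 0 of the 9 were higher at that level, and DESeq2 called 0 gained.

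Other genes of the naive network behaved in mixed ways. Of 30 listed genes, all with a promoter peak, 10 were lost and 1 was gained at 48 h vs 0 h, where 2.88% of all promoter peaks were lost and 4.87% gained. At 12 h vs 0 h, 3 were lost and 1 gained, against 17.0% lost and 2.4% gained among all promoter peaks, and at 48 h vs 12 h 12 were lost and 3 gained, against 2.61% and 27.4%. The median log2 fold changes were -0.37, -0.0037 and -0.38 in that order. The largest losses at 48 h vs 0 h were at Nr0b1 (Dax1), an orphan receptor that binds Oct4, with -1.22 (SE 0.28, edgeR adjusted p = 0.00413), and at Tcl1, a co-activator of Akt, with -0.998 (SE 0.21, edgeR adjusted p = 0.00183). Gbx2, a homeobox gene used both below LIF and in the early nervous system, was gained, with 475 and 503 (0 h), 649 and 526 (12 h) and 1247 and 776 (48 h) and 1.05 (SE 0.19, edgeR adjusted p = 0.00042). At 12 h the losses were led by Nr0b1, with -1.19 (SE 0.28, edgeR adjusted p = 0.00538), and Stat3, the transducer of LIF, with -0.78 (SE 0.19, edgeR adjusted p = 0.00701), and Lefty2, an inhibitor of Nodal, was the gain, with 0.43 (SE 0.14, edgeR adjusted p = 0.0356). At 48 h vs 0 h neither Stat3 nor Lefty2 was called, with -0.048 (SE 0.19, edgeR adjusted p = 0.903) and -0.043 (SE 0.14, edgeR adjusted p = 0.879).

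Of 18 genes of the formative and primed states that follow the naive state, 15 had a promoter peak. Of these, 8 were gained and 2 lost at 48 h vs 0 h, against the 4.87% and 2.88% of all promoter peaks. Some genes of the list, such as Pou3f1, are also used in early neural cells. Whether the gains belong to a primed or a neural state was not tested. At 12 h vs 0 h 2 were gained, against 2.4%, and at 48 h vs 12 h 6 were gained and 2 lost, against 27.4% and 2.61%. Pou3f1 (Oct6), a POU factor of the epiblast and early neural cells, had 143 and 107 (0 h), 137 and 101 (12 h) and 435 and 235 (48 h) and rose by 1.41 (SE 0.25, edgeR adjusted p = 0.000398) at 48 h vs 0 h. Fgf5, the classical marker of the primed epiblast, rose by 1.82 (SE 0.57, edgeR adjusted p = 0.0327), from scaled counts of 4.10 and 6.37 to 24.4 and 13.8. Otx2, which directs enhancers in the formative state, rose already at 12 h, by 1.07 (SE 0.22, edgeR adjusted p = 0.00199), as did the DNA methyltransferase gene Dnmt3a, by 0.71 (SE 0.14, edgeR adjusted p = 0.00126). Nodal, the ligand that supports the primed state, fell by 0.72 (SE 0.15, edgeR adjusted p = 0.00138) at 48 h vs 0 h.

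The members themselves shared a profile to different degrees. Pearson's r of each locus sum with the members' mean profile over the 6 libraries, a profile that includes the locus itself, was 0.98 for Tfcp2l1 and Esrrb, 0.92 for Sox2, Zfp42 and Pou5f1, 0.88 for Nr5a2, 0.75 for Nanog, 0.74 for Tbx3, 0.56 for Prdm14 and 0.29 for Sall4. Among 11767 other genes with a mean of at least 200 counts, the closest to that profile were N4bp3 (r = 0.996), Aurkc, Bclaf3, Mapk6 and Map7d2 (each r = 0.995). With 6 libraries that share their depth and time points, such values are a description. Of these, Aurkc changed most, with 282 and 302 (0 h), 319.5 and 299.9 (12 h) and 99.9 and 134 (48 h), a locus sum at 48 h vs 0 h of -1.31 on the log2 scale (edgeR adjusted p = 0.00133).

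Short letter strings were searched on both strands in the 500 bp at the peak centres. The E-box CAGATG was in 41.7% of the 12 promoter peaks and 38.0% of the 79 other peaks, against 21.8% and 31.7% of all peaks of these kinds, and the E-box CAGCTG in 8.33% and 22.8%, against 25.0% and 25.2%. The octamer ATGCAAAT was in 0 of the 12 and 1.27% of the 79, against 1.52% and 2.49%, and the Sox letters ACAATG were in 2 of the 12 and 15 of the 79 peaks, against 12.4% and 19.8%. The central 500 bp are a small part of a broad peak. Over whole peaks, the octamer was found in the promoter peaks of Pou5f1, Sox2, Esrrb and Zfp42, and in other peaks at Nanog, Sox2, Esrrb and Zfp42. Its share over all whole peaks was not computed. Median GC content was 49.4% in the 12 promoter peaks, against 54.5% in all promoter peaks, and the median width 7408 bp, against 1306 bp. The 79 other peaks had a median of 580 bp, and all peaks outside promoters 579 bp.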

How the data were processed

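H3K27ac ChIP-seq of A2Lox ES cells before and after NeuroD1 induction was used, with 2 libraries per time point grouped by their labels. Input has no column among the counts and was left out. Reads had been checked (FastQC), mapped locally to mm10 (Bowtie2, SAMtools 0.1.19) and used to call peaks over Input (MACS2), and the authors deposited raw counts of reads in peaks merged over samples (QuasR). A merged peak can join a promoter with nearby enhancers, and its counts are then inseparable. Library totals were 6797811 and 6572611 (0 h), 6506169 and 7583497 (12 h) and 6283103 and 8112895 (48 h).

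Peaks were assigned to genes with GENCODE M21 (protein-coding transcripts of the basic set), whose build matched the peak positions, and sequences were read from GRCm38 with pysam 0.24.0. Counts were tested with R 4.3.3 and edgeR 4.0.16 (quasi-likelihood fit and F test, library totals as offset, 1 model of 6 libraries, 3 residual degrees of freedom, biological coefficient of variation 14.9%) over 66841 peaks, over 17254 summed gene loci, and over 9917 genes for other against promoter peaks (library as a term). Benjamini-Hochberg adjusted p-values under 0.05 were called, and intervals are 95%. In simulated counts with 200 features changed 2-fold at 48 h vs 0 h, 70 of 200 peaks were recovered with 3 false calls among 66841, and 75 of 200 other-against-promoter differences with 7 false calls among 9917. Correlations used log2 scaled counts with a pseudocount of 8.

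Alternatives were TMM factors, DESeq2 1.42.0, a filter of 10 counts in 2 libraries, an offset on GC content, only the 4 libraries compared, the replicate number as a block, windows of 10, 50 and 120 kb, promoters of 1 kb, other genes' promoters counted as other peaks, and each library left out.

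Every member is named, with its strongest promoter peak and strongest other peak, and then, per comparison, the 3 called gains and 3 called losses of the largest size among peaks with a mean of at least 20 reads. Of the lists, the 2 largest called gains and losses at 12 h and 48 h vs 0 h are named, except 1 that is not reported here. Peaks outside this rule (the Nanog upstream peaks, the neighbouring gene's promoter peak at Pou5f1, the Zfp42 peak gained at 12 h, and the Sox2 peak gained at 12 h downstream) were chosen after their values were seen, as were the letters TTGTNATGC. The members and lists were chosen with earlier results of these data known. Other data of the study were not analysed here.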

Additional observations from a re-analysis of the deposited data

Results flagged for a closer look

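At 7 loci the change from 0 h differed between 12 h and 48 h, by the test of 48 h against 12 h itself (edgeR, summed counts). The log2 differences, 48 h minus 12 h, were -0.51 at Pou5f1, -0.43 at Sox2, -0.76 at Esrrb, -0.68 at Zfp42, -0.92 at Tfcp2l1, -0.86 at Nr5a2 and -0.72 at Tbx3. At Pou5f1 the change from 0 h was positive at 12 h and negative at 48 h, and only the first passed the test, while at Nr5a2 it was negative and passed at both times.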

How the results depend on the processing

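Over 135 single values and their alternatives, 1394 of 1732 recomputations kept direction and side of the threshold, 147 lost the call, 120 gained it and 71 changed sign. The sign changes were in 33 values, 0 of them called as reported, and 1 was called under the alternative: the Nr5a2 other minus promoter difference at 12 h vs 0 h, 0.74 (adjusted p = 0.0415) in a window of 120 kb, against -0.03 (adjusted p = 0.961) within 20 kb. Below, a difference is other minus promoter, and peaks are numbered along the chromosome. With the GC offset the sign-changed values were Pou5f1 difference (48 vs 12 h) 0.090, Nanog locus (48 vs 12 h) 0.033, Zfp42 locus (12 vs 0 h) -0.068, Tfcp2l1 locus (12 vs 0 h) -0.032, Nr5a2 difference (12 vs 0 h) 0.0015, Prdm14 locus (48 vs 0 h) -0.029, Sall4 locus (48 vs 12 h) 0.011, Sall4 difference (48 vs 12 h) 0.049, Nanog_9 peak (12 vs 0 h) -0.087, Zfp42_7 peak (12 vs 0 h) -0.23, Tfcp2l1_5 peak (12 vs 0 h) -0.00041, Prdm14_1 peak (12 vs 0 h) -0.026, Prdm14_1 peak (48 vs 0 h) -0.023, Prdm14_1 peak (48 vs 12 h) 0.0032, Sall4_12 peak (48 vs 12 h) 0.013, Sall4_17 peak (12 vs 0 h) -0.17, Sall4_20 peak (12 vs 0 h) -0.018 and Tbx3_1 peak (48 vs 0 h) 0.0089. With DESeq2 the sign-changed values were Nanog locus (12 vs 0 h) 0.080, Sall4 locus (12 vs 0 h) 0.11 and Sall4_12 peak (48 vs 12 h) 0.0064. Within 10 kb the sign-changed values were Pou5f1 difference (48 vs 0 h) 0.28, Pou5f1 difference (48 vs 12 h) 0.39, Zfp42 difference (48 vs 0 h) 0.11, Prdm14 locus (48 vs 0 h) -0.050 and Sall4 difference (48 vs 12 h) 0.052. Within 50 kb the sign-changed values were Nanog difference (48 vs 12 h) -0.18, Prdm14 locus (48 vs 0 h) -0.33 and Sall4 difference (48 vs 12 h) 0.054. Within 120 kb the sign-changed values were Nanog difference (48 vs 12 h) -0.092, Nr5a2 difference (12 vs 0 h) 0.74, Prdm14 locus (48 vs 0 h) -0.34, Sall4 locus (12 vs 0 h) 0.011 and Tbx3 difference (12 vs 0 h) -0.075. With promoters of 1 kb the sign-changed values were Pou5f1 difference (48 vs 12 h) 0.021 and Nr5a2 difference (48 vs 0 h) -0.39. With other genes' promoters counted the sign-changed values were Pou5f1 difference (48 vs 12 h) 0.22. With a library left out, the ranges that changed sign were Pou5f1 difference (48 vs 12 h) -0.10 to 0.034, Zfp42 difference (48 vs 0 h) -0.074 to 0.046, Nr5a2 difference (12 vs 0 h) -0.34 to 0.23, Nr5a2 difference (48 vs 0 h) -0.061 to 0.35, Nr5a2 difference (48 vs 12 h) -0.039 to 0.54, Prdm14 locus (48 vs 0 h) -0.20 to 0.21, Sall4 locus (48 vs 12 h) -0.10 to 0.049, Sall4 difference (48 vs 12 h) -0.10 to 0.061, Sox2_4 peak (12 vs 0 h) -0.020 to 0.10, Sox2_5 peak (12 vs 0 h) -0.0064 to 0.059, Tfcp2l1_1 peak (48 vs 12 h) -0.76 to 0.18, Prdm14_1 peak (48 vs 0 h) -0.21 to 0.25, Sall4_12 peak (48 vs 12 h) -0.11 to 0.070, Sall4_17 peak (12 vs 0 h) -0.028 to 0.086, Sall4_17 peak (48 vs 0 h) -0.024 to 0.13, Sall4_17 peak (48 vs 12 h) -0.052 to 0.10, Sall4_20 peak (12 vs 0 h) -0.18 to 0.52, Tbx3_1 peak (12 vs 0 h) -0.16 to 0.36, Tbx3_1 peak (48 vs 0 h) -0.40 to 0.12 and Tbx3_2 peak (48 vs 0 h) -0.22 to 0.76. The replicate numbers did not pair the libraries (correlations of same-numbered deviations of -0.036, -0.050 and 0.078), and with the replicate block the member peaks gained and lost were 6 and 2 (12 h vs 0 h), 0 and 14 (48 h vs 0 h) and 0 and 23 for 48 h against 12 h, and the loci called 2, 5 and 7.

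Member peaks gained at 12 h vs 0 h numbered 16 with the 4 libraries compared, 3 with DESeq2, 8 with the GC offset, 10 with TMM factors and 13 within 120 kb, and 0 to 16 with a library left out. Those lost numbered 8, 1, 3, 1 and 5 in the same order, 1 with the count filter, and 0 to 9 with a library left out. At 48 h vs 0 h, gains numbered 1 within 50 kb, 5 within 120 kb and 0 to 1 with a library left out, and losses 8 with DESeq2, 22 with the GC offset, 24 within 50 kb, 33 within 120 kb and 3 to 23 with a library left out. At 48 h vs 12 h, gains numbered 1 with the GC offset, 1 within 120 kb and 0 to 1 with a library left out, and losses 15 with the 4 libraries compared, 13 with DESeq2, 15 within 10 kb, 44 within 120 kb and 5 to 32 with a library left out. Wider windows hold more peaks. Loci called at 12 h vs 0 h numbered 9 with the 4 libraries compared, 5 with DESeq2, 5 with the GC offset, 1 with TMM factors and 0 to 9 with a library left out. At 48 h vs 0 h they numbered 2, 3, 7 and 3 in that order, 3 within 10 kb and 1 to 7 with a library left out, and at 48 h vs 12 h 0 to 9 with a library left out. Loci where other and promoter peaks differed numbered 0 with the GC offset, 2 within 120 kb, 2 with other genes' promoters counted and 0 to 4 with a library left out at 12 h vs 0 h, 1 with the GC offset, 1 within 120 kb and 0 to 1 with a library left out at 48 h vs 0 h, and 4 with the GC offset, 1 within 10 kb, 1 with promoters of 1 kb and 0 to 4 with a library left out at 48 h vs 12 h. Apart from window size and left-out libraries, the cause of these shifts was not tested. With 2 libraries per time point, narrow peaks with few reads carry wide counting error, and a lone library left in a group is assumed to vary like the others.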

Other observations

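Far downstream of Sox2, outside the window used above, lies a broad peak (chr3:34752794-34767551, 14758 bp, centred 109.8 kb from the TSS) in the region known as the Sox2 control region, which was chosen after its values were seen. It had scaled counts of 2588 and 2735 (0 h), 3776 and 3644 (12 h) and 1552 and 2372 (48 h), with 12 h highest and no overlap between 12 h and either other time. It rose by a log2 fold change of 0.48 (SE 0.15, edgeR adjusted p = 0.0343) at 12 h and fell by 0.92 (SE 0.15, edgeR adjusted p = 0.000372) from 12 h to 48 h, while 48 h vs 0 h gave -0.44 (SE 0.15, edgeR adjusted p = 0.057).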
